A study of Homo sapiens with 12 samples.

Results

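The genes described here are 10 transcriptional outputs and feedback inhibitors of the ERK mitogen-activated protein kinase pathway: DUSP4, DUSP5, DUSP6, SPRY2, SPRY4, SPRED1, ETV4, ETV5, PHLDA1 and FOSL1. They were chosen by name, as genes that follow ERK activity in many epithelial cells, and each was found by its Ensembl identifier among the 19251 genes listed in the deposited tables. All 10 passed the filter on low values, in both cell lines. The study asked which transcripts change when ovarian cancer cell lines are exposed to ovarian cancer ascites, the fluid that collects in the abdomen of patients with this disease.

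There were 2 cell lines, both labelled wild type. CAOV3 is labelled as epithelial high grade serous ovarian carcinoma, and TOV21G is an ovarian clear cell carcinoma line. Cells of each line were plated at 250000 in 1.5 mL of DMEM with 10% fetal bovine serum and antibiotics. The ascites groups then received 150 µL of ovarian cancer ascites, stated as 10% of the medium, for 16 h, and the control groups are labelled as having no treatment. Each of the 4 groups had 3 RNA-seq libraries. All groups carried the serum, a fluid or vehicle added to the control wells is not described, and neither the number of ascites donors nor whether the replicates were separate cultures is given, so the p-values measure the spread between these libraries, which may be technical.

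The ERK pathway passes signals from growth factor receptors through RAS, RAF and MEK kinases to ERK, which enters the nucleus and switches on transcription. Part of what it switches on turns it off again: the DUSP phosphatases strip phosphate from ERK, and the Sprouty and SPRED proteins act further up, between receptor, RAS and RAF. The levels of these transcripts are therefore widely read as a record of ERK output, although transcript levels alone do not measure kinase activity. In ovarian cancer the pathway can be driven by receptor ligands in the fluid around the cells as well as by mutation.

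The libraries held 26697609 to 34491304 reads in listed genes. The deposited values are reads divided by a size factor for each library, called normalised read counts below. Among the epithelial markers EPCAM, KRT7, KRT8, KRT18, KRT19 and CDH1, the summed level was 153270 to 154113 in CAOV3 controls and 176985 to 187539 in CAOV3 with ascites, against 11293 to 12749 and 10698 to 12301 in TOV21G. The 3 leukocyte markers listed (CD14, LYZ and CD79A) summed to 194 to 214 and 172 to 223 in CAOV3 and to 12.6 to 13.5 and 15.2 to 22.1 in TOV21G, where LYZ was at 0. Of the fibroblast list, 4 of 5 markers were listed, and their sum was 4217 to 4917 and 3812 to 4010 in CAOV3 and 12548 to 13084 and 11259 to 11694 in TOV21G. The 4 of 5 mesothelial markers listed (MSLN, CALB2, UPK3B and LRRN4) summed to 62.4 to 76.2 and 47.0 to 68.5 in CAOV3 and to 586 to 659 and 583 to 639 in TOV21G. The TOV21G sum was mostly MSLN, with a control mean of 510 against 14.8 in CAOV3. CALB2 went the other way between the lines, with a control mean of 43.0 in CAOV3 and 0.36 in TOV21G. In CAOV3 every ascites library had a higher epithelial sum and a lower fibroblast sum than every control, and in TOV21G every ascites library had a lower fibroblast sum. The CAOV3 epithelial sum was mostly KRT8 and KRT18. CDH1 went the other way, from 455, 389 and 429.5 in controls to 266, 268 and 281 with ascites. KRT19 also had a lower mean with ascites in CAOV3, 16198 against 16839, its libraries overlapping. In TOV21G CDH1 was at 6.29 to 17.3. The fibroblast sum was mostly LUM in CAOV3, and COL1A2 and COL1A1 in TOV21G, where LUM was at 0 in every control. The part of these markers in the results below was not tested. The TOV21G libraries varied along one axis that took 50.5% of their within-group variance, on which control replicate 1 scored 13.9 and ascites replicate 2 scored 12.6, against scores of -12 for control replicate 2 and -9.9 for ascites replicate 3.

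In CAOV3, the transcription factor gene FOSL1 rose with ascites while the feedback inhibitor SPRY4 and the ETS factor ETV5 fell, with differences of 22.8%, 13.5% and 12% of the control mean. The remaining 7 genes did not pass the test. Of all 17616 genes tested, 1.73% were called in CAOV3 at a Benjamini-Hochberg adjusted p under 0.05 in limma, against 3 of the 10 ERK genes. By direction, 0.636% of all genes were called higher and 1.1% lower, against 1 and 2 of the 10. At an unadjusted limma p under 0.05 were 4 of the 10 genes, against 12.9% of all genes. The median log2 difference of the 10 genes was -0.09, and over all genes tested it was 0. Since the genes were named with results of these data known, their share is a description.

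FOSL1 (ENSG00000175592, chr11:65892049-65900573, minus strand, GRCh38 in GENCODE 29) encodes a partner in the AP-1 transcription factor, whose gene and protein both respond to sustained ERK activity. In CAOV3 its normalised read count was 4877, 4822 and 4541 in the controls and 5741, 5888 and 5863 with ascites. Every ascites library lay above every control library. The mean went from 4747 ± 180 to 5831 ± 78.8 (SD, n = 3 libraries each), 22.8% higher, a log2 difference of 0.30 with a 95% interval of 0.18 to 0.41 and a limma adjusted p of 0.0107. The call was lost without control replicate 3 (adjusted p = 0.0573, limma) and without ascites replicate 2 (0.0525).

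SPRY4 (ENSG00000187678, chr5:142310427-142326455, minus strand) encodes a Sprouty protein that restrains signalling from receptors to RAS and RAF. Its normalised read count in CAOV3 was 4661, 4564 and 4526 in the controls and 4037, 3980.4 and 3877 with ascites. All 3 ascites libraries lay below all 3 controls. The mean was 4584 ± 69.7 in controls and 3965 ± 81.2 with ascites (SD, n = 3 each), 13.5% lower, with a log2 difference of -0.21 (95% interval -0.30 to -0.12) and a limma adjusted p of 0.0266. Leaving out any one of the 6 CAOV3 libraries ended the call, with limma adjusted p from 0.0647 (without ascites replicate 1) to 0.113 (without ascites replicate 3), while the direction held.

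ETV5 (ENSG00000244405, chr3:186046308-186110318, minus strand) encodes an ETS transcription factor of the PEA3 subfamily, induced by ERK downstream of receptor tyrosine kinases. It was 1947, 1915 and 2056 in CAOV3 controls and 1745, 1686 and 1775 with ascites. The groups did not overlap, the ascites libraries being lower. The mean of 1973 ± 73.7 compared with 1735 ± 45.3 (SD, n = 3 each), 12% lower, for a log2 difference of -0.18 (95% interval -0.27 to -0.09) and a limma adjusted p of 0.0421. This call too was lost without any one of the 6 libraries, at limma adjusted p from 0.0579 (without control replicate 2) to 0.169 (without ascites replicate 2).

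The close relative ETV4 (ENSG00000175832, chr17:43527844-43579620, minus strand) was 3827, 3896 and 3815 in CAOV3 controls and 3608, 3499.8 and 3479.5 with ascites. The ascites libraries were all lower than the controls, yet the gene was not called: the log2 difference was -0.12 (95% interval -0.21 to -0.04), with a limma adjusted p of 0.195. Fitting CAOV3 alone gave ETV4 an adjusted p of 0.0253 by limma.

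The phosphatases DUSP4, DUSP5 and DUSP6, which act on ERK in the nucleus (DUSP4, DUSP5) or the cytoplasm (DUSP6), were not called in CAOV3. DUSP6 (ENSG00000139318, chr12:89347232-89353271, minus strand), the phosphatase most often used as an ERK readout, was 5701, 5557 and 5681 in controls and 6233, 5999.7 and 6151 with ascites. Every ascites library was the higher, by means of 5646 ± 77.9 and 6128 ± 118 (SD, n = 3 each). The log2 difference of 0.12 had a 95% interval of -0.01 to 0.24 and a limma adjusted p of 0.415. Fitting CAOV3 alone gave DUSP6 an SE of 0.033, against 0.057 in the fit of both lines, and an adjusted p of 0.0246 by limma. DUSP4 (ENSG00000120875, chr8:29333064-29350668, minus strand) ran the other way, at 5495, 5412 and 5311 in controls and 5138, 4801 and 5129.8 with ascites. Its groups did not overlap either, but the log2 difference of -0.11 (95% interval -0.22 to 0.01) had a limma adjusted p of 0.43. DUSP5 (ENSG00000138166, chr10:110497838-110511544, plus strand) was 843, 816 and 802 in controls and 811, 754 and 741 with ascites, values that overlap, and its log2 difference was -0.10 (95% interval -0.24 to 0.04).

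The remaining members were SPRY2, SPRED1 and PHLDA1. SPRY2 (ENSG00000136158, chr13:80335976-80340951, minus strand), a second Sprouty gene, was 2232, 2072 and 2241 in CAOV3 controls and 1982, 2086 and 2087 with ascites. SPRED1 (ENSG00000166068, chr15:38252326-38357249, plus strand), whose product recruits neurofibromin to RAS, was 5847, 6115 and 6549.7 in controls and 6009, 5676 and 5779 with ascites. PHLDA1 (ENSG00000139289, chr12:76025447-76033932, minus strand), a pleckstrin homology-like protein induced by growth factors, was 13791, 13962 and 14015 in controls and 14546, 13619.9 and 14014 with ascites. In all 3 genes the groups overlapped, and their log2 differences were -0.09, -0.08 and 0.01 with 95% intervals of -0.23 to 0.05, -0.18 to 0.01 and -0.07 to 0.10. Counting all 10 genes, 6 had groups that did not overlap in CAOV3 (2 above and 4 below), against 24.2% of all genes tested.

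**Figure D1:**
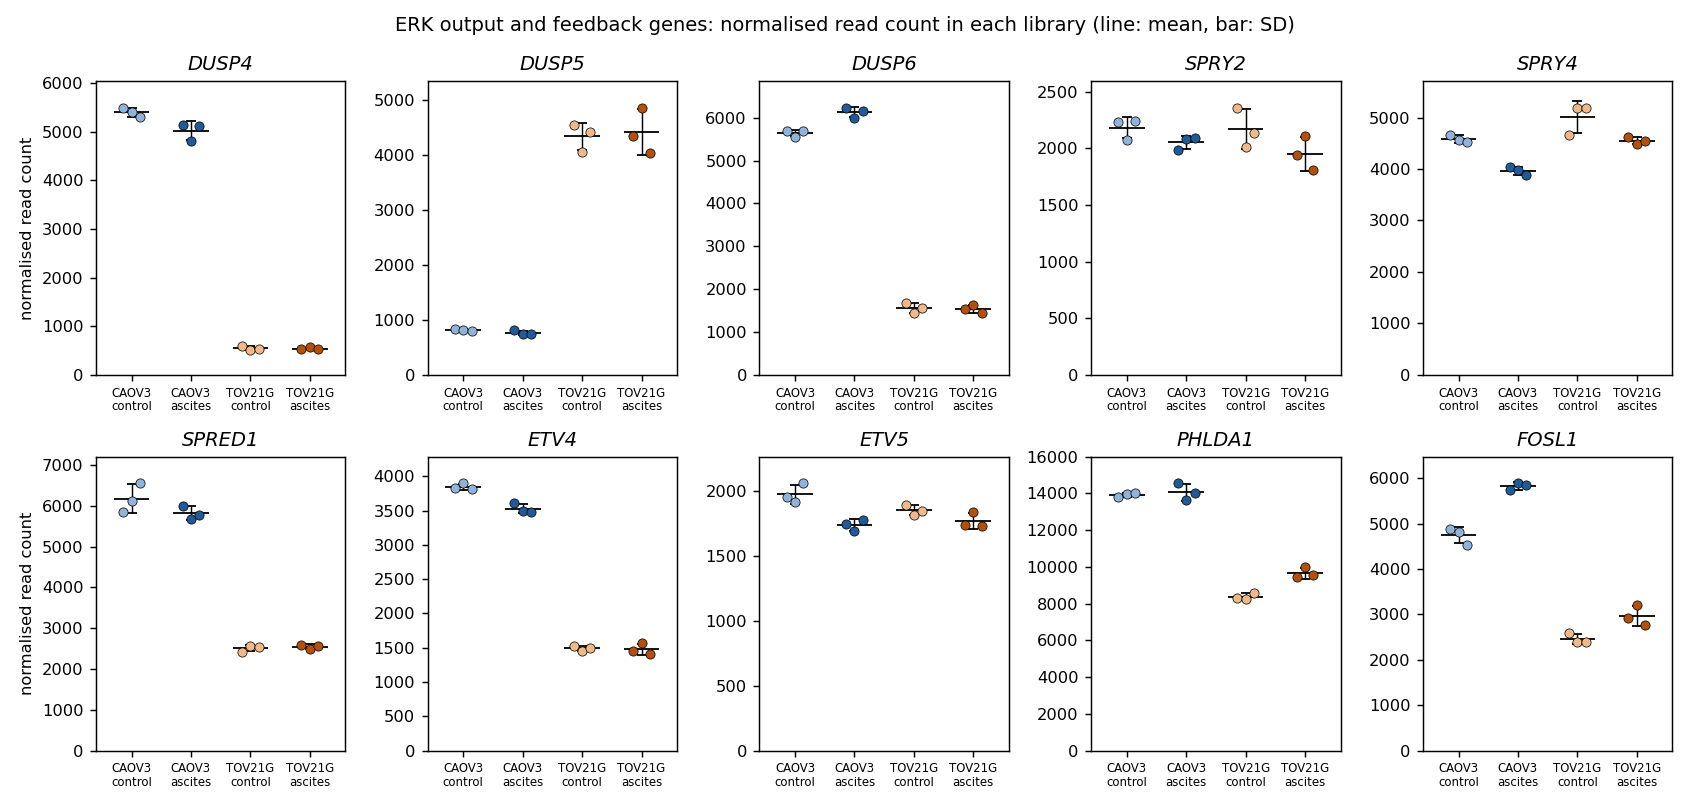
Normalised read count (vertical axes, starting at 0) of each of the 10 genes in every library, by line and treatment; points are libraries, the horizontal line is the mean and the bar the SD of 3 libraries. With ascites FOSL1 stands higher and SPRY4 lower in both lines, though neither was called in TOV21G. ETV5 stands lower in CAOV3 and PHLDA1 higher in TOV21G. DUSP4, DUSP5 and DUSP6 differ far more between the lines than between treatments.

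In TOV21G, PHLDA1 was the one gene of the 10 called higher with ascites by limma, and none was called lower. Of all genes tested, 0.409% were called in TOV21G, 0.142% of them higher than control and 0.267% lower. At an unadjusted limma p under 0.05 were 4 of the 10 genes, against 9.17% of all genes. The median log2 difference of the 10 genes was -0.02, the same as over all genes tested. Groups that did not overlap were found for 3 of the 10 genes (2 above and 1 below), against 11.1% of all genes.

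PHLDA1 was 8291, 8233 and 8580.2 in TOV21G controls and 9427, 9986 and 9569.6 with ascites. All ascites libraries lay above the controls. The mean was 8368 ± 186 in controls and 9661 ± 291 with ascites (SD, n = 3 each), 15.4% higher, with a log2 difference of 0.21 (95% interval 0.12 to 0.29) and a limma adjusted p of 0.0423. Leaving out any one of the 6 libraries ended the call, at limma adjusted p from 0.0637 (without ascites replicate 2) to 0.109 (without control replicate 3), and fitting TOV21G alone gave 0.372.

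FOSL1 narrowly missed the threshold in TOV21G. It was 2592, 2399.8 and 2403 in controls and 2931, 3212 and 2777 with ascites, so that the groups did not overlap. The mean of 2465 ± 110 compared with 2973 ± 221 (SD, n = 3 each), 20.6% higher, and the log2 difference of 0.27 (95% interval 0.16 to 0.38) had a limma adjusted p of 0.0501. The adjusted p was 0.003 by edgeR and 0.000279 by DESeq2 on recovered reads, 0.00702 by limma after TMM scaling, and 0.275 by limma with TOV21G fitted alone. In limma it passed without control replicate 1 (0.0476) or ascites replicate 3 (0.0329), and was 0.197 without control replicate 3.

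The feedback and ETS genes of TOV21G had small differences. SPRY4 was 4659, 5180.2 and 5190.5 in controls and 4621, 4483 and 4536 with ascites, the ascites libraries all lower. Its log2 difference of -0.14 (95% interval -0.23 to -0.05) had a limma adjusted p of 0.323. SPRY2 was 2358, 2012 and 2136 in controls and 1939, 2109 and 1806 with ascites; the groups overlapped, and the log2 difference was -0.15 (95% interval -0.29 to -0.01) at a limma adjusted p of 0.502. For ETV5, controls of 1888, 1816 and 1845 overlapped ascites libraries of 1737, 1839 and 1726, with a log2 difference of -0.07 (95% interval -0.16 to 0.02). ETV4 was 1529, 1456 and 1495 in controls and 1455, 1563 and 1413 with ascites, overlapping, with a 95% interval of the log2 difference of -0.11 to 0.07.

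None of the 3 phosphatases separated by treatment in TOV21G. DUSP6 was 1684, 1438 and 1565 in controls and 1539.7, 1639 and 1433 with ascites, a log2 difference of -0.02 (95% interval -0.15 to 0.10). DUSP4 was 595, 516 and 535 in controls and 536, 565 and 527 with ascites (95% interval of the log2 difference -0.13 to 0.10). DUSP5 was 4543, 4062 and 4423 in controls and 4341, 4864 and 4039 with ascites (-0.12 to 0.16). In each of these genes the ascites values fell among the controls or around them. SPRED1 was likewise overlapping, at 2426, 2566 and 2536 in controls and 2589, 2482 and 2567 with ascites (-0.08 to 0.12).

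Several of these genes moved together among TOV21G libraries of the same group. DUSP4, DUSP5, DUSP6, SPRY2, ETV4, ETV5 and FOSL1, 7 of the 10, were highest in control replicate 1 among controls and in ascites replicate 2 among ascites libraries, the 2 libraries at one end of the axis described above. Without those 2 libraries, FOSL1 was called higher (limma adjusted p = 0.0264) and SPRY4 lower (0.0458), while PHLDA1 was no longer called (0.0796), a setting chosen after seeing the data. In that setting 98 of all 17616 genes tested were called in TOV21G. The libraries' part in the TOV21G values beyond this was not tested.

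**Figure D2:**
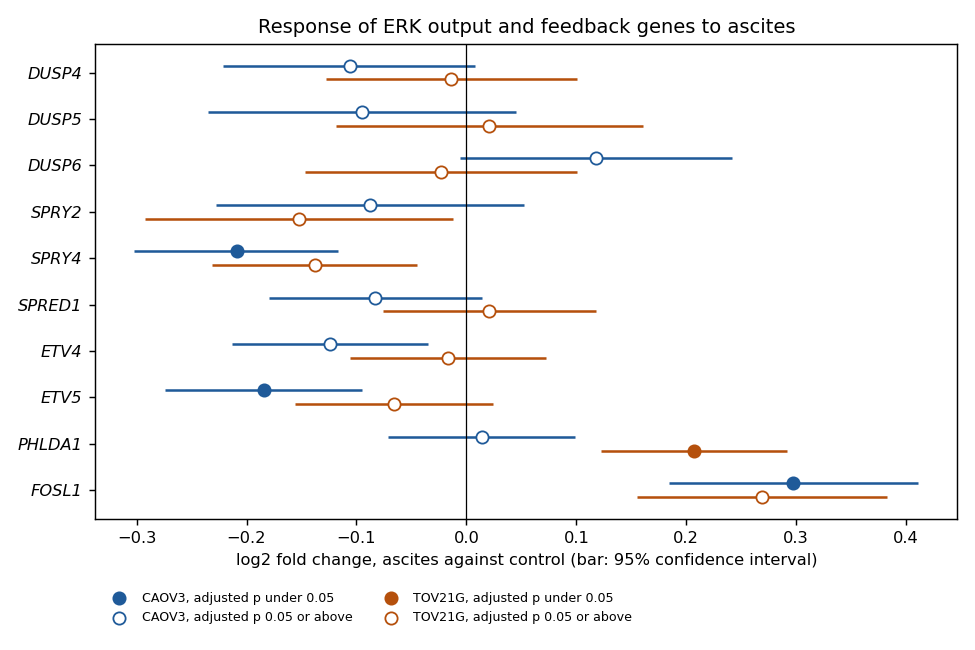
Log2 difference of the normalised read count, ascites against control (horizontal axis), for each of the 10 genes in CAOV3 (blue) and TOV21G (orange); points are limma estimates, bars 95% confidence intervals, and filled points have an adjusted p under 0.05. The estimates for FOSL1 are 0.30 and 0.27 and those for SPRY4 -0.21 and -0.14. The phosphatase intervals, from the fit of both lines together, all reach across 0.

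Whether the lines responded differently was tested as the ascites difference in TOV21G minus that in CAOV3. None of the 10 genes was called (0 of 10 by limma and 0 by edgeR on recovered reads, with 1 at an unadjusted p under 0.05), against 0.545% of all genes called and 11.9% at an unadjusted p under 0.05. That gene was PHLDA1, whose response was 0.19 higher on the log2 scale in TOV21G (SE 0.06, 95% interval 0.07 to 0.31, limma adjusted p = 0.211). DESeq2 on recovered reads called it, at an adjusted p of 0.0321, as did quantile-normalised values in limma at 0.0144. For FOSL1 the difference between the lines' responses was -0.03 with a 95% interval of -0.19 to 0.13. The intervals for SPRY4 (-0.06 to 0.20) and ETV5 (-0.01 to 0.25) also took in 0, so a call in CAOV3 and none in TOV21G does not show that the lines differed in these genes. The estimate for DUSP6 was -0.14 (-0.32 to 0.03).

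Between the untreated lines, DUSP4, DUSP5, DUSP6, SPRED1, ETV4, PHLDA1 and FOSL1 had larger log2 differences than with ascites in either line, while those of SPRY2, SPRY4 and ETV5 were at most 0.13 in size and no larger than their ascites differences in at least one line. In TOV21G controls 2 genes were called higher and 6 lower than in CAOV3 controls; in all genes tested 82.2% were called (40.8% higher and 41.4% lower), so most genes differed between these lines and the count of 8 of 10 is near that share. The groups did not overlap for 8 of the 10, against 82.6% of all genes. The median size of the log2 difference was 1.12 for the 10 genes and 0.81 for all genes tested. What is not shared is the direction within the phosphatase family.

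DUSP4 and DUSP6 were lower in TOV21G and DUSP5 was higher. DUSP4 had a control mean of 548.5 ± 41.4 in TOV21G and 5406 ± 92.4 in CAOV3 (SD, n = 3 each), 9.85-fold lower, with a log2 difference of -3.30 and a limma adjusted p of 3.73e-15. DUSP6, at 1563 ± 123 (SD, n = 3) in TOV21G, was 3.61-fold lower (limma adjusted p = 1.76e-12). DUSP5, with 4343 ± 251 in TOV21G and 820.4 ± 21.1 in CAOV3 (SD, n = 3 each), was 5.29-fold higher (limma adjusted p = 4.62e-13). All control libraries of the lower line lay below all of the other in each case.

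Of the other feedback genes, SPRED1 was 2.46-fold lower in TOV21G (limma adjusted p = 5.73e-12), and the Sprouty genes differed little. SPRY4 was 1.09-fold higher (limma adjusted p = 0.0147), its libraries overlapping, and the call was lost without TOV21G control replicate 2 (0.0588) or 3 (0.0724). For SPRY2 the log2 difference was -0.01 with a 95% interval of -0.15 to 0.13. Among the ETS factors, ETV4 was 2.58-fold lower (limma adjusted p = 1.36e-12), while ETV5 had a log2 difference of -0.09 (-0.18 to 0, limma adjusted p = 0.0536). FOSL1 was 1.93-fold lower (limma adjusted p = 8.96e-10) and PHLDA1 1.66-fold lower (5.74e-10).

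Compared between genes, levels were divided by exon length, the union of annotated exons in GENCODE 29, since a longer transcript gives more reads. In CAOV3 controls the order of normalised reads per kb was FOSL1 at 2515, PHLDA1 at 1726, DUSP6 at 1219 and ETV4 at 1066. SPRED1, DUSP4, SPRY2 and SPRY4 came next at 698 to 747, each neighbour's libraries overlapping the next, and ETV5 at 340.0 and DUSP5 at 314 were lowest. In TOV21G controls the order opened with DUSP5 at 1661, FOSL1 at 1306 and PHLDA1 at 1037. SPRY4 at 763 and SPRY2 at 714 overlapped, ETV4 stood at 414, DUSP6 at 337 and ETV5 at 319 overlapped, and SPRED1 at 304 and DUSP4 at 75.6 came last. DUSP5 was thus the lowest of the 10 in CAOV3 and the highest in TOV21G. FOSL1 and PHLDA1 were in the top 3 in both lines. With the longest transcript as length, SPRED1 moved in CAOV3 from rank 5 to rank 8, SPRY4 from 8 to 6 and DUSP4 from 6 to 5, and ETV4 and DUSP6 changed places; in TOV21G ETV5 and DUSP6 did.

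**Figure D3:**
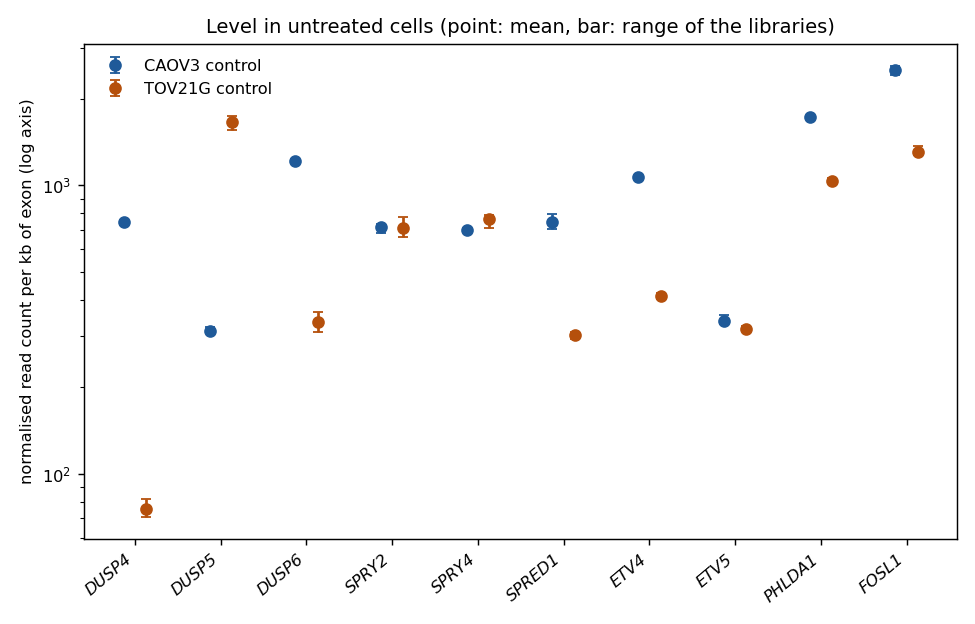
Normalised read count per kb of exon (vertical axis, log scale) in untreated CAOV3 (blue) and TOV21G (orange), with the mean as the point and the range of 3 libraries as the bar. DUSP5 runs from 314 in CAOV3 to 1661 in TOV21G and DUSP4 from 745 to 75.6, while SPRY2 and ETV5 lie close together.

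The rest of the pathway was followed in lists by role: ligands and receptors, the cascade from adaptors to ERK and the RSK kinases below it, other negative regulators, and other output genes. These lists too were written with results of these data known, so their shares in both lines are a description. In CAOV3 the ERBB ligands AREG and EREG rose and the receptor ERBB3 fell, 3 of 15 genes tested in that list, against 1.73% of all genes. AREG, amphiregulin, went from 412 ± 50.2 to 592.5 ± 18.6 (SD, n = 3 each; limma adjusted p = 0.00573), a log2 difference of 0.53, and EREG, epiregulin, by 0.34 (limma adjusted p = 0.000326). ERBB3 went from 1654 ± 71.9 to 1258 ± 134 (SD, n = 3 each; limma adjusted p = 0.00872) and was no longer called without control replicate 3 (0.0524). The feedback gene SPRED3, a relative of SPRED1, went from 301.2 ± 8.93 to 476.3 ± 48.9 (SD, n = 3 each), 0.65 higher on the log2 scale (limma adjusted p = 0.000257), and was the 1 gene called of the 18 other negative regulators. None of 21 cascade genes and none of 10 other outputs was called in CAOV3 by limma, with 7 and 6 at an unadjusted p under 0.05, against 12.9% of all genes.

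In TOV21G, where 0.409% of all genes were called, 3 of the 15 ligand and receptor genes and 1 of the 10 other outputs were. EREG rose again, by 0.23 on the log2 scale (limma adjusted p = 0.0198), and the ligand TGFA and receptor FGFR3 fell, by 0.23 and 0.52 (limma adjusted p = 0.0351 and 0.0459). MAFF, a small MAF protein gene in the other outputs, rose from 420.2 ± 29.3 to 562.4 ± 21.5 (SD, n = 3 each; limma adjusted p = 0.026). All 4 calls were lost without control replicate 1, control replicate 3 or ascites replicate 1; TGFA, FGFR3 and MAFF also without ascites replicate 3, and FGFR3 without control replicate 2. The highest limma adjusted p was then 0.0857 for EREG, 0.159 for TGFA, 0.179 for FGFR3 and 0.116 for MAFF, each without control replicate 3. With TOV21G fitted alone it was 0.341 for EREG, 0.423 for TGFA, 0.421 for FGFR3 and 0.0982 for MAFF, so that none was called. FGFR3 was not called by edgeR (adjusted p = 0.083) or DESeq2 (0.0593) on recovered reads either, and EREG (0.0533) and MAFF (0.0618) not by limma without control replicate 1 and ascites replicate 2 together. No cascade gene and no other negative regulator was called in TOV21G by limma, with 3 and 1 at an unadjusted p under 0.05, against 9.17% of all genes.

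**Figure D4:**
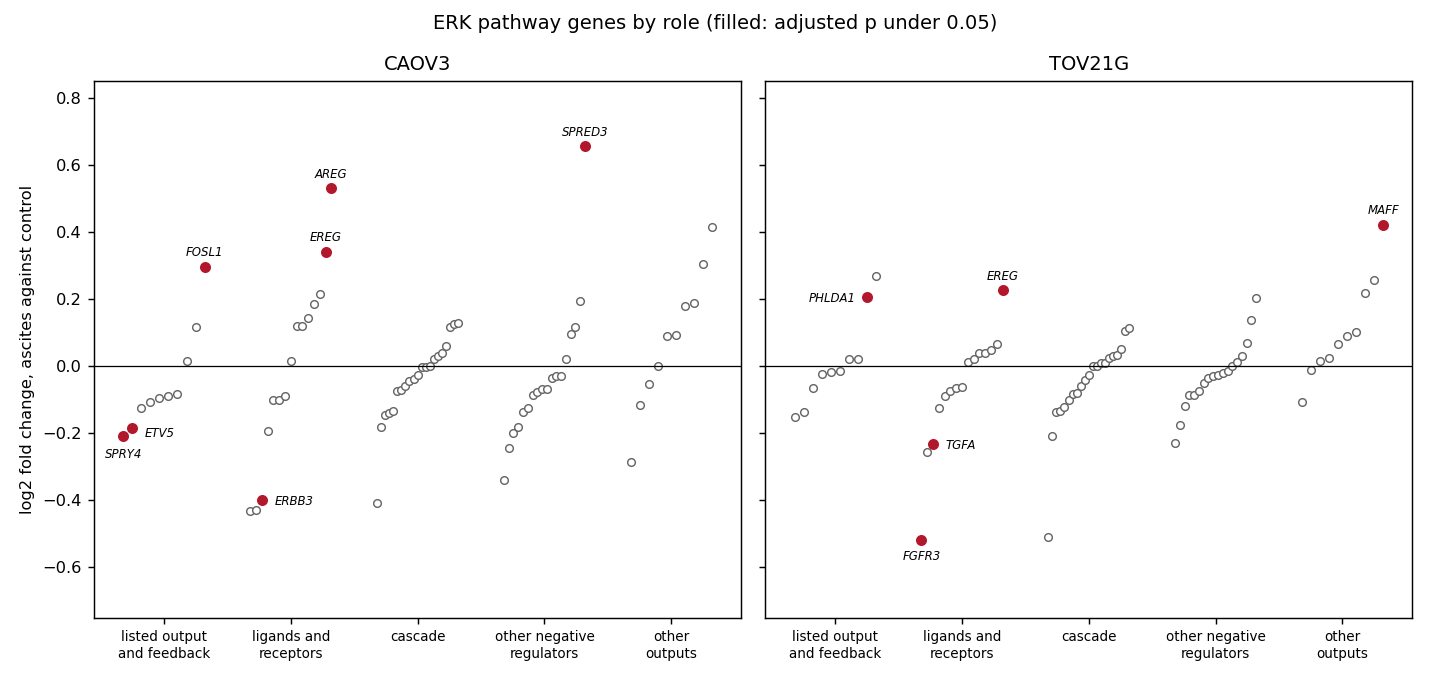
Log2 difference, ascites against control (vertical axis), of the genes of each role list in CAOV3 (left) and TOV21G (right), in rising order within a list; filled points have an adjusted p under 0.05 and are named. In CAOV3 AREG stands at 0.53 and SPRED3 at 0.65, above every ERK output gene of the first list.

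Untreated, these lists also differed between the lines: in TOV21G 10 ligand and receptor genes were higher and 4 lower than in CAOV3, 10 and 9 of the cascade, 9 and 8 of the negative regulators, and 4 and 6 of the other outputs, beside the share of all genes given above. Ligand genes were among the largest differences: BTC was 36.5-fold, EREG 6.74-fold and TGFA 3.92-fold higher in TOV21G. The ligand HBEGF had a lower control mean there, 149 against 200 in CAOV3. Receptor genes also went both ways. FGFR3, ERBB3 and MET were 4.89-fold, 4.84-fold and 1.98-fold lower in TOV21G. ERBB2 had a higher control mean there, 3212 against 1032.5 in CAOV3, as did FGFR4, 2746 against 1243. The fold for BTC rests on a low mean of 8.82 in CAOV3 controls, and its log2 difference ran from 4.15 to 5.2 under the alternatives. In the cascade the adaptor GAB1 was 29.2-fold, the kinase MAPK3 2.88-fold and RPS6KA1 2.38-fold higher, and the scaffold KSR1 was 22.1-fold and RPS6KA2 2.92-fold lower. Among negative regulators IL17RD, DUSP10 and DUSP1 were 5.03-fold, 4.41-fold and 4.32-fold higher, and ERRFI1, a feedback inhibitor of the EGF receptor, was 31.4-fold lower, with SPRY1 3.69-fold and DUSP9 2.29-fold lower. Of the other outputs, MYC was 14.4-fold, IER3 3.8-fold and LIF 3.4-fold higher, and EPHA4 14.5-fold, CCND1 4.53-fold and EGR1 2.28-fold lower. Outputs thus differed in both directions, as the phosphatases did.

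The genes that followed DUSP6 most closely within each line were ITGA3, an integrin subunit gene, CTSA and YWHAG. Their correlations with DUSP6 over the 6 libraries of CAOV3 and of TOV21G were 0.987 and 0.979, 0.97 and 0.99, and 0.987 and 0.973. They were the top 3 of 11873 genes ranked by the mean of both values, the libraries of each line share its treatment groups, and the values are a description. Over all 12 libraries the correlation with DUSP6 was -0.99 for ITGA3, 0.978 for CTSA and 0.977 for YWHAG. Of the 10 ERK genes, FOSL1 followed DUSP6 in CAOV3 (0.898) and not in TOV21G (0.294), while SPRY4 went against it in CAOV3 (-0.914) and ETV4 went against it there (-0.891) but with it in TOV21G (0.891). DUSP4 (-0.664 in CAOV3 and 0.919 in TOV21G), DUSP5 (-0.571 and 0.903), SPRY2 (-0.638 and 0.84) and ETV5 (-0.799 and 0.706) likewise had opposite signs in the 2 lines. SPRED1 was at -0.495 and -0.843, and PHLDA1 at 0.441 and 0.001. DUSP6 and the 5 genes with a positive value in TOV21G and a negative one in CAOV3 were all highest there in control replicate 1 and ascites replicate 2 of their groups.

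Promoter windows of 250 bases before to 50 after the start, from RefSeq on GRCh38.p14, were matched for 5 of the 10 genes: DUSP6, SPRY2, SPRY4, SPRED1 and PHLDA1. The letters CGGAA, a form of the core in sites of ETS factors such as ETV4 and ETV5, were searched on both strands. Sites with another base before GGAA were not searched. CGGAA lay in 3 of the 7 windows of these genes (DUSP6, PHLDA1 and 1 of those of SPRY2), against 34.9% of all 35116 windows. The longer ETS motif CCGGAAGT lay in none, against 4.14%. The AP-1 motif TGANTCA, the CRE motif TGACGTCA and the CArG box motif also lay in none, against 7.71%, 1.85% and 1.29%. A match is a description and not a site of binding. One stretch of 30 bases for each of the 3 genes shows a match, in capitals (CGGAA, or TTCCG where it lies on the other strand), 5′ to 3′ on the gene's strand, which is the minus strand for all of them.
DUSP6, chr12:89352634-89352663: tccggagCGGAAattcctTTCCGtttttgt
PHLDA1, chr12:76031806-76031835: ggggaacgagcgCGGAAgcaagtgggcggc
SPRY2, chr13:80341250-80341279: ccctgcctcctcCGGAAaggcgagggcgca
The first match in the stretch shown starts 155 bases before the start site in DUSP6, 47 in PHLDA1 and 141 in SPRY2. Each window holds another match that is not printed, starting 61 bases before the start site in DUSP6, 89 in PHLDA1 and 208 in SPRY2.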

How the data were processed

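RNA-seq of 12 libraries was analysed. Per the submitters' processing notes, the tools were Trim Galore, cutadapt, STAR, HTSeq and DESeq; their versions, genome build, annotation and use of strand are not given in the sources used here, so reads of overlapping or antisense genes (such as SPRY4-AS1 at SPRY4) cannot be told apart. The authors deposited normalised counts, a signal equal to whole reads divided by a size factor for each library. Gene names came from a name table (19087 identifiers) and GENCODE 29 (136); 28 had none.

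Values were tested as log2(value + 1) with limma 3.58.1 (trend) in R 4.3.3, all 12 libraries in one fit with a mean per group, over the 17616 genes at 10 or more in at least 3 libraries, with Benjamini-Hochberg adjustment and a threshold of 0.05. In that fit, intervals and p-values used one spread per gene, shared by both lines. The median SD within groups was 0.062 in CAOV3 controls, 0.05 in CAOV3 ascites, 0.081 in TOV21G controls and 0.079 in TOV21G ascites. It was taken over log2 values of 11886 genes with a mean of 100 or more. Fold differences are ratios of mean values. Alternatives used edgeR 4.0.16 and DESeq2 1.42.0 on recovered reads, other pseudocounts, scalings and filters, and each library left out. The test was also run on simulated data with independent libraries and the same dispersion in both lines. Those data did not hold the axis of the TOV21G libraries, so they do not cover it. The 10 genes and the lists were chosen with earlier results of these data known, and of the other lists every gene called with ascites was named, and between untreated lines the 3 called genes per list with the largest difference each way at a mean of 100 or more; 1 gene this names is not reported here. The control values of ERBB2, FGFR4 and HBEGF are given in addition to the genes of that rule. Genes that followed DUSP6 were chosen by correlations within lines, since the lines form separate clusters. Correlations over all 12 libraries were also taken, and are given for ITGA3, CTSA and YWHAG. Replicates of a group differed beyond counting error (chi-square per degree of freedom 1.81 to 22.6), so none was merged.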

Additional observations from a re-analysis of the deposited data

Results flagged for a closer look

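The response to ascites differed between the lines in 2 genes of the wider pathway lists, by the test of the difference itself. For AREG the TOV21G response minus the CAOV3 response was -0.62 on the log2 scale (limma adjusted p = 0.0421): 412 ± 50.2 became 592.5 ± 18.6 in CAOV3, and 807.7 ± 50.4 became 760.2 ± 65.9 in TOV21G (SD, n = 3 each). That call was lost on leaving out any one library other than CAOV3 control replicate 1, TOV21G control replicate 2 and TOV21G ascites replicate 2, with the highest adjusted p at 0.133, and at a pseudocount of 0.5 (0.051). For SPRED3 the same difference was -0.67 (limma adjusted p = 0.0093), with 301.2 ± 8.93 and 476.3 ± 48.9 in CAOV3 and 743.7 ± 18.7 and 736.8 ± 28.2 in TOV21G (SD, n = 3 each), and it was called with each of the 12 libraries left out in turn.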

How the results depend on the processing

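No called result of the 10 genes or of the named list genes reversed under the alternatives run. Of all genes in CAOV3 (305), edgeR called 511, DESeq2 507, CAOV3 alone 1295, array weights 799, and the replicate block 116. In TOV21G (72) these gave 114, 151, 22, 3390 and 13. For the difference in response (96), TMM gave 151, edgeR 148, DESeq2 210, array weights 1794 and the block 9, and leaving out the 2 TOV21G libraries at one end of the axis 178, a setting chosen after seeing the data. Of the 10 ERK genes in CAOV3 (3), the line alone gave 5 and the block 0. In TOV21G (1), a pseudocount of 10, TMM, quantile normalisation, edgeR, DESeq2 and the 2 libraries left out each gave 2, array weights 5, and the line alone and the block 0. Of all 17616 genes in TOV21G, a pseudocount of 10 called 79, TMM 94, quantile normalisation 103 and the 2 libraries left out 98. In the difference (0), quantile normalisation and DESeq2 each gave 1, where quantile normalisation called 136 of all genes. With one library left out, the ERK genes called numbered 0 to 1 in CAOV3, 0 to 1 in TOV21G, 0 to 0 in the difference and 7 to 9 between controls. The counts over all genes were 172 to 232 in CAOV3 and 24 (without control replicate 3) to 136 (without ascites replicate 2) in TOV21G. For the difference they were 40 (without TOV21G control replicate 3) to 146 (without TOV21G ascites replicate 2), and between controls 14020 to 14305. With the block, FOSL1, SPRY4 and ETV5 in CAOV3 had limma adjusted p of 0.0858, 0.164 and 0.179, and PHLDA1 in TOV21G 0.379; EREG, TGFA, FGFR3 and MAFF in TOV21G had 0.286, 0.322, 0.264 and 0.127, and the differences in response of AREG and SPRED3 0.211 and 0.119. Whether same-numbered libraries share more than a number is not given. Their deviations correlated at -0.069, 0.06 and 0.014 in CAOV3 and at -0.165, -0.417 and 0.073 in TOV21G. With 3 libraries a group, these values cannot decide whether the libraries were paired. The cause of these changes was not tested. Each group had 3 libraries, which limits the precision.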
